A study of Mus musculus with 6 samples.

Results

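The genes described here encode parts of the B cell receptor, the surrogate chains that stand in for its light chain, and proteins that act beside it: Ighm, Ighd, Cd79a, Cd79b, Ms4a1, Pax5, Vpreb1, Igll1 and Blnk. They were chosen by name, as rows of the deposited expression table whose symbol equals one of these names exactly. Of the 9 names, 8 had a row among the 38926 gene symbols of the table. No row carried the plain symbol Ighd, so the delta heavy chain is not analysed here. RNA was measured in 6 libraries from sorted bone marrow cells of mouse femur and tibia. The sort took cells that were negative for lineage markers and positive for Sca1 and cKit (LSK), where stem cells and multipotent progenitors are found. One group was labelled wild type and the other Drd2 Drd3 double knockout, with 3 libraries each, and all mice were untreated C57BL/6 animals aged 8 to 12 weeks. The labels do not give which exons were deleted, nor whether each replicate was a separate animal. The p-values thus reflect only how much these samples vary, which may be technical. WT1 to WT3 and KO1 to KO3 stand for the libraries labelled wild type and knockout with that replicate number, and every direction is from the libraries labelled WT to those labelled KO.

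The B cell receptor is a membrane immunoglobulin, whose heavy chain of the mu class comes from Ighm, held by the signalling pair Cd79a and Cd79b. Before a light chain gene is rearranged, the heavy chain of a pre-B cell pairs with the surrogate light chain, made of the products of Vpreb1 and Igll1, and the adaptor Blnk carries the signal onward. Pax5 is the factor that commits a cell to the B lineage, and Ms4a1 encodes CD20 of mature B cells. The mu locus is also transcribed before any rearrangement: germline transcripts start beside the D segment nearest to the J segments or at the intronic enhancer and run into the mu constant region. RNA of Ighm alone is therefore no mark of a committed B cell, and its value is set here beside those of Pax5, Ms4a1 and the light chains.

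Of the mu locus, a D and a J segment upstream of the constant region are shown first, because later results turn on them. Both can lie in germline transcripts that start beside the D segment. Reads of Ighj1 do not tell germline from rearranged messages. The sequences are taken from GENCODE M21 on build GRCm38 (mm10), 5′ to 3′. Ighd4-1 lies at chr12:113430528-113430538 and Ighj1 at chr12:113429781-113429833, both on the minus strand.
Ighd4-1: ctaactgggac
Ighj1: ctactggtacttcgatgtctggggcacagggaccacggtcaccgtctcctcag
Ighm itself lies at chr12:113418558-113422730 on the minus strand and is annotated as an immunoglobulin constant gene. Its membrane and secreted messages share 1305 annotated coding bases and then part. The next lines give the last 12 shared bases in lower case and the first 48 bases of each form alone in capitals.
Ighm membrane form: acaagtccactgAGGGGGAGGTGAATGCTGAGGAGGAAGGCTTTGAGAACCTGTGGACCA
Ighm secreted form: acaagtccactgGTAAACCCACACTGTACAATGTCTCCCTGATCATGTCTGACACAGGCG
The table gives 1 value per gene, so the membrane and secreted forms, and germline and rearranged messages, cannot be told apart in the value of Ighm.

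Vpreb1 has a close copy, Vpreb2, and the stretch from coding base 328 to 387 shows how near they are. Capitals mark the 5 bases that differ there.
Vpreb1: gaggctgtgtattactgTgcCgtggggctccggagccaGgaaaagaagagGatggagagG
Vpreb2: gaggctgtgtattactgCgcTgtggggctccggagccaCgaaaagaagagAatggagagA
Over all 429 coding bases the copies differed at 9, an identity of 97.9%, and 42.6% of windows of 50 bases were identical. Reads from such windows could have been counted for either gene or dropped, so the values of Vpreb1 and Vpreb2 are uncertain.

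Values are FPKM, reads per kilobase of gene scaled by the authors for sequencing depth. Whole reads could be recovered from them and came to 5245255 to 7148218 per library, with 15632 to 16220 genes above 0. Drd2 was listed at 0 in all 6 libraries. Drd3 was at 0 in WT1 to WT3 but at 1.62, 3.08 and 3.04 FPKM in KO1, KO2 and KO3, which goes against the labels. Ddx3y, on the Y chromosome, was at 0 and Xist was above 0 in KO1 and KO3, and the other 4 libraries showed the reverse. The markers of the gate were present, with Kit at 82.5 to 150 FPKM, Ly6a at 110 to 161 FPKM and Cd34 at 366 to 691 FPKM over the 6 libraries.

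Ighm was by far the most abundant of the 8 genes, and the genes of committed B cells were the least. By mean FPKM over the 6 libraries Ighm ranked 205 in the table (272 FPKM), ahead of Cd79b at rank 2284 (37.0 FPKM). Vpreb1 (2.42 FPKM), Cd79a (2.24 FPKM) and Blnk (1.18 FPKM) followed at ranks 9531, 9701 and 11029. Igll1 had a mean of 0.669 FPKM, Ms4a1 of 0.0528 FPKM and Pax5 of 0.0469 FPKM. Vpreb1 and Cd79a were within their spread of each other, with coefficients of variation of 62.8% and 60.1%, and so were Ms4a1 and Pax5 (179% and 155%). A mean of at least 1 FPKM, the minimum for testing, was reached by 5 of the 8, so Igll1, Ms4a1 and Pax5 are given as values.

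**Figure D1:**
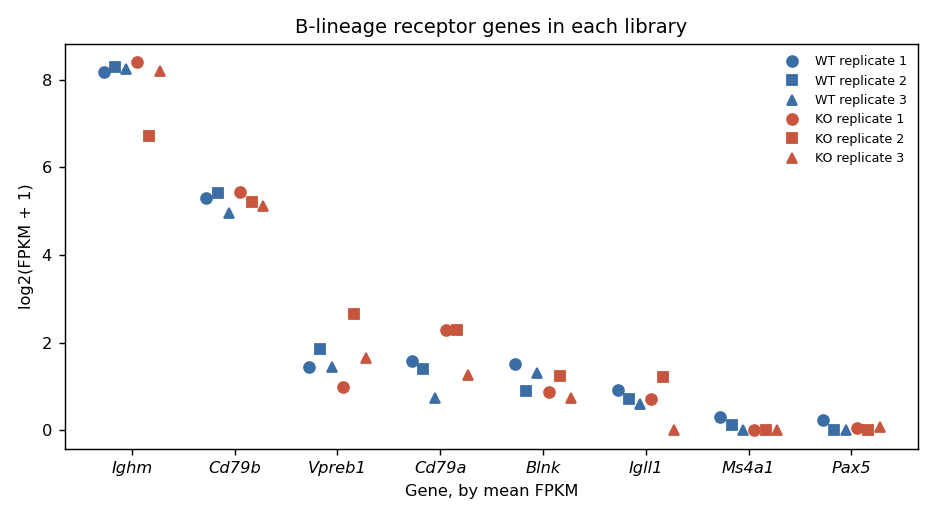
Level of each of the 8 genes in each library, as log2(FPKM + 1) on the vertical axis, with genes ordered by mean FPKM. Blue marks are the libraries labelled WT and red marks those labelled KO, with 1 shape per replicate number. Ighm at 105 FPKM in KO2 stands below its other 5 values, and Ms4a1 and Pax5 lie at or near 0.

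None of the 5 tested genes passed the test for a difference between the libraries labelled WT and KO. With limma on log2(FPKM + 1) and Benjamini-Hochberg adjustment over 11371 genes, 0 of 5 were called at an adjusted p under 0.05, against 10.9% of all genes tested (5.48% called higher and 5.43% called lower). None had an unadjusted p under 0.05, and voom, a weighted limma fit on the recovered reads, called 0 of them against 13.7% of all genes. The groups overlapped in all 5, while they did not overlap in 32.8% of the genes tested. The fold changes of Cd79a, Cd79b and Vpreb1 were above 0 and those of Ighm and Blnk under 0. Their median was 0.03 on the log2 scale, beside -0.002 over all genes tested. A missed threshold does not show equal levels, and the intervals given for each gene are the ranges of difference that these libraries allow.

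Ighm, the mu heavy chain constant gene, was at 287, 310 and 300 FPKM in WT1 to WT3 and at 335, 105 and 294 FPKM in KO1 to KO3. Behind these values were 2660, 2703, 2788, 3589, 1075 and 2373 recovered reads. A single library, KO2, was low, and the other 5 lay between 287 and 335 FPKM with no gap between the groups. The counting interval of KO2, 98.5 to 111 FPKM (95%, exact Poisson, counting error only), did not reach any other library. The WT mean was 299 ± 11.8 FPKM (SD, n = 3), 2.86-fold the value of KO2. The KO mean was 245 ± 123 FPKM (SD, n = 3). On the log2 scale the difference was -0.46 (SE 0.36, 95% interval -1.25 to 0.34, limma adjusted p = 0.444). It turned to 0.07 without KO2. With KO1 and KO3 left out, it was -1.51 (limma adjusted p = 0.00490, 0.00490 to 0.720 over its alternatives), a fit in which the lone library KO2 is assumed to vary like the WT group.

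The mu transcripts may be read beside the D and J segments printed above. Ighj1, the J segment furthest from the constant region, had 23, 18 and 21 reads in WT1 to WT3 and 13, 9 and 4 in KO1 to KO3. Every library labelled KO lay below every library labelled WT. In FPKM, which is high for a few reads because the segment is short, the mean fell from 63.6 ± 5.79 to 24.2 ± 10.05 (SD, n = 3 each). The log2 change of Ighj1 was -1.44 (SE 0.26, limma adjusted p = 0.00993, 0.00420 to 0.0562 over its alternatives). The call was lost with voom (adjusted p = 0.0562) and with no filter on low values (limma adjusted p = 0.0515), a fit that called 3.04% of 19373 genes. Ighj1 was named after its values were seen, as were the other V, D and J segments.

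As a share of the reads of Ighj1 and Ighm together, Ighj1 made up 0.857% in WT1 (95% exact interval 0.544 to 1.28%), 0.662% in WT2 (0.393 to 1.04%) and 0.748% in WT3 (0.463 to 1.14%). It made up 0.361% in KO1 (0.192 to 0.616%), 0.830% in KO2 (0.380 to 1.57%) and 0.168% in KO3 (0.0459 to 0.430%). The values of KO1 and KO3 were the lowest, but the interval of KO1 overlapped those of all other libraries and that of KO3 overlapped those of WT2, KO1 and KO2. The intervals of KO1, KO2 and KO3 overlapped each other, which does not show equal shares, and a difference in this share among them was not tested. In KO2 the level was low for both genes, with the WT mean 2.86-fold its value for Ighm and 2.59-fold for Ighj1. For Ighj1 the WT mean was also 2.63-fold the mean of the libraries labelled KO, so KO2 stood apart from KO1 and KO3 only for Ighm. Ighd4-1, the 11 base D segment beside Ighj1, had 3, 2 and 4 reads in WT1 to WT3 and 1, 1 and 0 in KO1 to KO3 (limma adjusted p = 0.0582, 0.00584 to 0.177 over its alternatives). It passed the threshold without KO2 (limma adjusted p = 0.0497), without KO3 (0.00584) and with a minimum mean of 5 FPKM (0.0344). The other 19 D segment rows were at 0 in every library.

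Cd79a encodes one of the 2 signalling chains of the receptor (chr7:24897381-24902197, plus strand). It was at 1.98, 1.64 and 0.659 FPKM in WT1 to WT3 and at 3.90, 3.87 and 1.39 FPKM in KO1 to KO3. These values rest on 18, 14, 6, 41, 39 and 11 reads. KO1 and KO2 were above all WT libraries, and KO3 lay within the WT range. The means were 1.43 ± 0.685 and 3.05 ± 1.44 FPKM (SD, n = 3 each), a log2 difference of 0.71 (SE 0.33, 95% interval -0.04 to 1.46, limma adjusted p = 0.202). Without KO3 it was 1.05 and passed the threshold (limma adjusted p = 0.0426, 0.0426 to 0.473 over its alternatives).

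Cd79b, the partner chain (chr11:106311341-106314762, minus strand), was far more abundant than Cd79a and the steadiest of the 8 genes. It was at 38.3, 41.6 and 30.1 FPKM in WT1 to WT3 and at 42.3, 36.0 and 33.6 FPKM in KO1 to KO3, from 261 to 437 reads per library. The groups covered much the same range, and the coefficient of variation over the 6 libraries was 12.8%. The means were 36.7 ± 5.93 and 37.3 ± 4.50 FPKM (SD, n = 3 each), and the log2 difference was 0.03 (SE 0.14, 95% interval -0.29 to 0.35, limma adjusted p = 0.913). The products of Cd79a and Cd79b bind each other in the receptor, but the 2 genes stood far apart in FPKM in all 6 libraries. The FPKM of Ighm was 7.49, 7.46 and 9.98 times that of Cd79b in WT1 to WT3, and 7.91, 2.91 and 8.76 times in KO1 to KO3. Again KO2 was the library that stood apart.

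Of the surrogate light chain, Vpreb1 (chr16:16868403-16870843, minus strand) encodes the part that resembles a V domain. It was at 1.73, 2.61 and 1.73 FPKM in WT1 to WT3 and at 0.996, 5.33 and 2.15 FPKM in KO1 to KO3, from 12, 17, 12, 8, 41 and 13 reads. KO1 was the lowest and KO2 the highest of the 6. The counting interval of KO2 ran from 3.82 to 7.23 FPKM and that of WT2, the next highest, from 1.52 to 4.17 FPKM, so they overlapped. The means were 2.02 ± 0.508 and 2.83 ± 2.24 FPKM (SD, n = 3 each), with a log2 difference of 0.19 (SE 0.37, 95% interval -0.65 to 1.03, limma adjusted p = 0.782). Without KO2 the difference was -0.25. Its copy Vpreb2 was at 0.747, 0 and 0 FPKM in WT1 to WT3 and at 0.323, 1.01 and 0.859 FPKM in KO1 to KO3. Behind these values were 2, 0, 0, 1, 3 and 2 recovered reads, too few to rank the libraries.

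Igll1 encodes lambda5, the part of the surrogate chain that resembles a constant domain (chr16:16860671-16863985, minus strand). It lies next to Vpreb1 and was lower. It was at 0.888, 0.631 and 0.518 FPKM in WT1 to WT3 and at 0.640, 1.34 and 0 FPKM in KO1 to KO3, from 12, 8, 7, 10, 20 and 0 reads. As with Vpreb1 the highest library was KO2. In KO3 no read was recovered, and 3 reads there, the limit that a count of 0 allows, would be 0.255 FPKM. With no filter on low values the log2 difference was -0.10 (limma adjusted p = 0.889).

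Blnk, the adaptor that links the receptor's kinase Syk to downstream enzymes, lies at chr19:40928927-40994535 on the minus strand. It was at 1.84, 0.854 and 1.50 FPKM in WT1 to WT3 and at 0.833, 1.35 and 0.677 FPKM in KO1 to KO3, from 69, 30, 56, 36, 56 and 22 reads. WT2 lay among the libraries labelled KO, and KO2 among those labelled WT. The means were 1.40 ± 0.502 and 0.954 ± 0.354 FPKM (SD, n = 3 each), with a log2 difference of -0.29 (SE 0.25, 95% interval -0.85 to 0.28, limma adjusted p = 0.496).

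Pax5 and Ms4a1, the genes of committed and mature B cells, were at the edge of detection. Pax5 (chr4:44524757-44710487, minus strand) was at 0.187 FPKM in WT1, 0.0405 FPKM in KO1 and 0.0538 FPKM in KO3, from at least 4, 1 and 1 reads, and was listed at 0 in WT2, WT3 and KO2. Ms4a1 (chr19:11249675-11266241, minus strand) was at 0.234 FPKM in WT1 and 0.0829 FPKM in WT2, from at least 3 and 1 reads, and was listed at 0 in WT3 and in all 3 libraries labelled KO. For a library at 0, 3 reads would be at most 0.269 FPKM of Ms4a1 and 0.149 FPKM of Pax5. With no filter on low values, the limma adjusted p was 0.834 for Pax5 and 0.455 for Ms4a1, and no difference was detectable at this depth. Each of the 6 libraries thus held at least 1075 reads of Ighm beside at most 4 recovered reads of Pax5.

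The libraries labelled KO1 and KO3 differed from the other 4 in light chain, which rearranged B cells make. Igkc, the kappa constant gene (chr6:70726435-70726966), was at 2.48, 2.11 and 1.98 FPKM in WT1 to WT3 and at 3182, 4.93 and 1173 FPKM in KO1 to KO3. For each read of Ighm there were 0.00188, 0.00148 and 0.00143 reads of Igkc in WT1 to WT3, 0.0102 in KO2, 0.866 in KO3 and 2.07 in KO1. The log2 difference of Igkc was 6.46 (SE 1.84, limma adjusted p = 0.0550, 1.13e-05 to 0.479 over its alternatives). It was 4.71 without KO1 (limma adjusted p = 0.153), 9.25 without KO2 (1.13e-05), 5.43 without KO3 (0.126) and 0.90 with KO1 and KO3 left out (0.0774). With a pseudocount of 0.1, a minimum mean of 5 FPKM or a replicate block, Igkc was called (limma adjusted p = 0.0485, 0.0319 and 0.0389). Iglc2, a lambda constant gene, was at 0, 0.282 and 0.264 FPKM in WT1 to WT3 and at 6.40, 1.19 and 2.43 FPKM in KO1 to KO3. It rose by 1.70 on the log2 scale (limma adjusted p = 0.0269, 0.0138 to 0.0959 over its alternatives). The call on Iglc2 was lost without any 1 of WT1, WT2 and WT3 (limma adjusted p = 0.0944, 0.0836 and 0.0726). It was also lost with no filter on low values (limma adjusted p = 0.0898). Iglc2 reached the minimum mean for testing only through the libraries labelled KO, with a WT mean of 0.182 FPKM. With KO1 and KO3 left out, its log2 difference was 0.90. KO1 and KO3 were also the libraries at 0 for Ddx3y, and the part of these differences in any result on the members was not tested.

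Igj, the joining chain of secreted IgM and IgA, was high in the 2 libraries in which Igkc was high. It was at 0.530, 0.282 and 0 FPKM in WT1 to WT3 and at 39.8, 0.239 and 33.8 FPKM in KO1 to KO3, from 6, 3, 0, 521, 3 and 333 reads (limma adjusted p = 0.0894). KO2 lay within the WT range. Among switched heavy chains, Ighg3 was at 7.99 FPKM in KO3 from at least 43 reads and listed at 0 in the other 5 libraries. Igha was at 0.155, 0.825 and 0.619 FPKM in WT1 to WT3 and at 0.938, 2.10 and 2.14 FPKM in KO1 to KO3 (limma adjusted p = 0.0974), and Ighg1 was at 0 in all 6 libraries. Ighg2b was above 0 in KO3 and Ighg2c in WT1, each at no more than 3 recovered reads, and Ighe reached at most 0.745 FPKM.

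**Figure D2:**
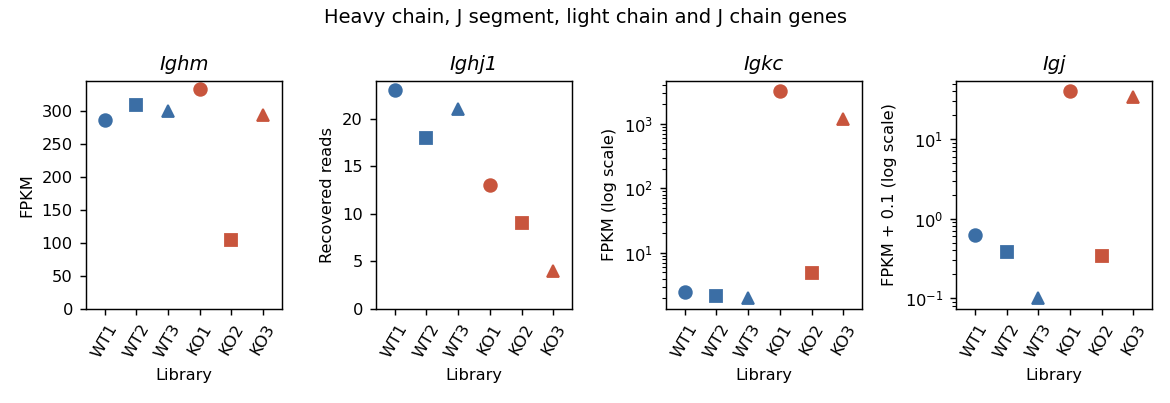
Ighm (FPKM), Ighj1 (recovered reads), Igkc (FPKM, log axis) and Igj (FPKM + 0.1, log axis) in each library, with blue marks for libraries labelled WT and red for KO. KO2 is low for Ighm, all 3 libraries labelled KO are low for Ighj1, and KO1 and KO3 are high for Igkc and Igj.

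The reads of V genes show which V genes were transcribed in each library, but not whether those messages were rearranged. In WT1 to WT3 and KO2 the heavy chain V reads were few beside those of Ighm, so they do not describe its messages there. Each B cell generally expresses 1 heavy and 1 light chain V gene, so a sample of many cells shows many V genes. Over the 114 heavy chain V rows, 85, 76 and 108 reads were recovered in WT1 to WT3, and Ighv1-23 led with 29.4, 38.2 and 36.1% of them. In KO2, with 88 reads, the leading gene, Ighv1-85, held 14.8%. In KO1 the single gene Ighv3-6 held 254 of 296 reads (85.8%, 95% exact interval 81.3 to 89.6%). In KO3 Ighv7-3 held 349 of 434 reads (80.4%, 76.4 to 84.0%). Ighv3-6 and Ighv7-3 were each listed at 0 in the other 5 libraries.

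The kappa V genes were as uneven in the same libraries. Over 104 kappa V rows, 1, 5 and 7 reads were recovered in WT1 to WT3 and 8 in KO2, against 4782 in KO1 and 1684 in KO3. Igkv6-20 held 99.6% of those in KO1 (4764 reads) and Igkv12-46 held 91.5% of those in KO3 (1541 reads). Both genes were listed at 0 in the other 5 libraries. KO3 also held 136 reads of Igkv14-126 and 14 of Ighv11-2, V genes known as a frequent pair in B-1 cells. Igkv14-126 was not particular to KO3, as it held 3 of the 7 kappa V reads of WT3. Whether the heavy and kappa reads came from the same cells cannot be told in bulk RNA. Reads of genes seen in 1 library are lower bounds, and close V genes can share reads, so these shares are uncertain. In bulk RNA, how many cells of a type were present and how much RNA each held cannot be told apart.

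Of the 22 V, D and J rows with a mean of at least 1 FPKM, 0 were called higher and 4 lower (background 5.43% lower): Ighj1, Ighv1-82, Ighv1-23 and Ighv1-62-1. With no filter on low values, all 4 calls were lost (limma adjusted p = 0.0515, 0.0863, 0.0926 and 0.102, in that order). Ighv1-23 had 25, 29 and 39 reads in WT1 to WT3 and 21, 7 and 11 in KO1 to KO3 (limma adjusted p = 0.0248, 0.0139 to 0.0938 over its alternatives). Its call was lost without any 1 of WT1, WT2 and WT3 (limma adjusted p = 0.0510, 0.0930 and 0.0938). Ighv1-82 had 8, 15 and 9 reads against 4, 3 and 0 (limma adjusted p = 0.0211, 0.0202 to 0.0966), a call also lost without any 1 of the WT libraries (0.0504, 0.0966 and 0.0574) and with KO1 and KO3 left out (0.0919). Ighv1-62-1 had at most 3 reads in a library, and its call (limma adjusted p = 0.0280, 0.0123 to 0.307) was lost without WT1, WT3, KO1 or KO3.

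**Figure D3:**
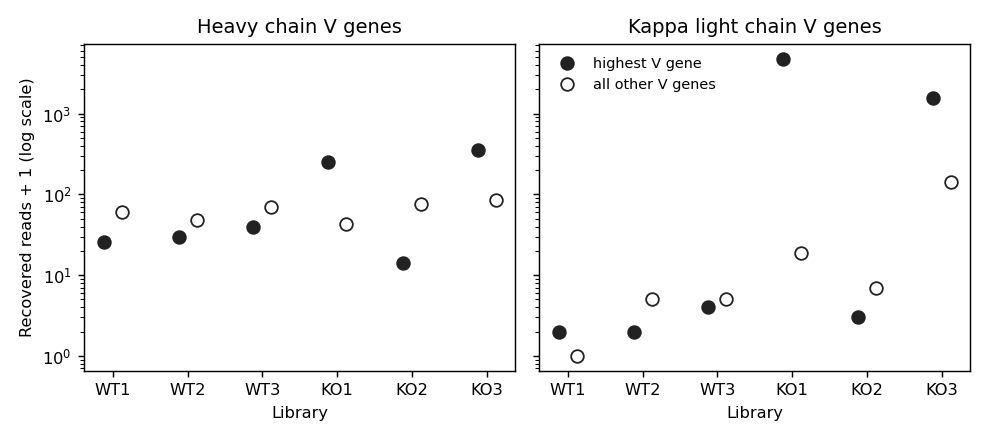
Recovered reads plus 1 (log axis) of the highest V gene (filled) and of all other V genes together (open) in each library, for heavy chain V genes (left) and kappa V genes (right). The highest gene stands above all others together in KO1 and KO3 and lies at or below them in the other 4 libraries, except for kappa in WT1, where 1 read was recovered in all.

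Among genes of early B cell recombination and receptors, 10 of 14 were tested, 0 rose and 2 fell, with a median log2 difference of -0.18. Of all genes tested 5.48% were called higher and 5.43% lower, which is the background for the counts of this and the next lists. Dntt, the terminal transferase that adds bases at V(D)J joints, was at 304, 348 and 329 FPKM in WT1 to WT3 and at 66.0, 117 and 103 FPKM in KO1 to KO3. Rag2, a subunit of the V(D)J recombinase, was at 2.20, 2.44 and 2.57 FPKM against 0.648, 0.211 and 0.538 FPKM. The groups were clear of each other in both genes. Dntt fell by 1.81 (limma adjusted p = 0.000751, 9.57e-05 to 0.0125 over its alternatives) and Rag2 fell by 1.23 on the log2 scale (limma adjusted p = 0.00987, 0.00351 to 0.0492). Rag1, the catalytic partner of Rag2, stayed at or below 0.0775 FPKM in all 6 libraries. The cytokine receptor Il7r was at 0.475 to 2.01 FPKM with overlapping groups, and Vpreb3 was at 1.12 to 3.20 FPKM (limma adjusted p = 0.788 and 0.418).

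Among factors of the B lineage, 12 of 18 were tested, 1 rose and 2 fell (10.9% of all genes were called), with a median log2 difference of -0.25. Ikzf1, which encodes Ikaros, was at 21.02, 18.5 and 18.5 FPKM in WT1 to WT3 and at 10.6, 11.6 and 12.3 FPKM in KO1 to KO3. It fell by 0.70 on the log2 scale (limma adjusted p = 0.00812, 0.00326 to 0.0603), and with KO1 and KO3 left out, which leaves 1 library labelled KO, the fold was nearly the same (-0.69) but missed the threshold (0.0603). Mef2c fell from 39.0 ± 2.34 to 24.1 ± 2.32 FPKM (SD, n = 3 each; limma adjusted p = 0.00696). Foxo1 was at 6.40, 4.79 and 6.78 FPKM in WT1 to WT3 and at 9.46, 10.4 and 10.1 FPKM in KO1 to KO3. It rose by 0.66 on the log2 scale (limma adjusted p = 0.0261). The call on Foxo1 was lost without any 1 of WT1, WT2, WT3, KO1 and KO2 (limma adjusted p = 0.0654, 0.108, 0.0550, 0.0559 and 0.0730). It was also lost with no filter on low values (limma adjusted p = 0.0665). Ebf1 acts with Pax5 in commitment. It was at 0.115, 0.210 and 0.164 FPKM in WT1 to WT3 and at 0.213, 0.311 and 0.302 FPKM in KO1 to KO3. These values rest on 7, 12, 10, 15, 21 and 16 reads (limma adjusted p = 0.447 with no filter on low values). Ikzf3 was at 0 to 0.0585 FPKM, while Tcf3, which acts upstream of Ebf1, was at 55.7 to 77.5 FPKM. Pax5, Ebf1 and Ikzf3 were thus low in the same libraries in which Tcf3 and Ighm were abundant.

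Of the genes of receptor signalling, 19 of 24 were tested, and 1 rose and 0 fell, with a median log2 difference of -0.14. A share of 1 in 19 is near the background of 5.48% called higher. The gene that rose was Cd81, a tetraspanin that many cells express, from 223 ± 6.46 to 281 ± 15.3 FPKM (SD, n = 3 each; limma adjusted p = 0.0418, 0.0145 to 0.173). Its call was lost without any 1 of WT1, WT2, WT3, KO1 and KO2 (limma adjusted p = 0.114, 0.173, 0.124, 0.103 and 0.0950). It was also lost with no filter on low values (limma adjusted p = 0.0824). Syk, the kinase that Cd79a and Cd79b recruit, was at 14.1, 14.5 and 14.4 FPKM in WT1 to WT3 and at 9.68, 8.84 and 12.3 FPKM in KO1 to KO3. Its limma adjusted p was 0.0695, and voom called it lower (adjusted p = 0.0304), along with Plcg2 and Inpp5d.

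Of the surface genes of mature B cells, 7 of 14 were tested, 0 rose and 1 fell (background 5.43% lower). Their summed level was 132 to 144 FPKM in the libraries labelled WT and 112 to 130 FPKM in those labelled KO, where the highest was KO1. Most of it came from genes that other blood cells also express, such as Cd37 at 33.9 to 43.1 FPKM and Cd72 at 18.5 to 32.7 FPKM. Cd22, an inhibitory receptor of B cells, was low, at 0 to 0.119 FPKM. Fcrl1 was at 2.12, 3.93 and 2.74 FPKM in WT1 to WT3 and at 1.09, 1.42 and 0.993 FPKM in KO1 to KO3. It fell by 0.84 on the log2 scale (limma adjusted p = 0.0443). The call was lost without any 1 of the 6 libraries (limma adjusted p = 0.0582 to 0.169) and with no filter on low values (0.109).

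Of 8 tested plasma cell genes 0 were called by limma (adjusted p), with summed levels of 234 to 240 FPKM in WT1 to WT3 and of 279, 232 and 322 FPKM in KO1 to KO3. Without Igj, the sums were 240, 235 and 234 FPKM in WT1 to WT3 and 239, 232 and 288 FPKM in KO1 to KO3, so that KO1 lay within the WT range and KO3 above it. At an unadjusted p under 0.05, 3 of them passed, and voom called 0. The 3 were Igj, Mzb1 and Fkbp11, with log2 differences of 3.27, 1.09 and 0.52, all higher in KO. The share of all genes at this unadjusted threshold is not given here. Mzb1 was at 1.24, 0.377 and 1.59 FPKM in WT1 to WT3 and at 1.23, 3.04 and 7.53 FPKM in KO1 to KO3. Xbp1 at 64.2 to 119 FPKM, Creld2 at 56.5 to 70.3 FPKM and Txndc5 at 52.1 to 62.9 FPKM made up most of the sum. A change in the lower genes could thus be hidden in it. Prdm1 was at 0.292, 0.404 and 0.117 FPKM in WT1 to WT3 and at 0.808, 0.132 and 0.201 FPKM in KO1 to KO3. KO1 was the highest, and the values rest on 10, 13, 4, 32, 5 and 6 recovered reads (limma adjusted p = 0.824 with no filter on low values). The part of plasma cell RNA in the values of Ighm was not tested. Of 14 T and NK cell genes, Cd3g and Ncr1 were at 0 in all libraries and 5 were tested, with 1 called higher and 1 lower. Klrb1c was at 0.811, 0.691 and 0.216 FPKM in WT1 to WT3 and at 3.32, 2.05 and 2.18 FPKM in KO1 to KO3 (limma adjusted p = 0.0195). The call was lost without WT2, WT3 or KO1 (limma adjusted p = 0.0618, 0.0697 and 0.0589) and with no filter on low values (0.0543). Its WT mean was 0.573 FPKM, so it reached the minimum mean only through the libraries labelled KO. With KO1 and KO3 left out, its log2 difference was 0.98. Nkg7 was at 352, 401 and 417 FPKM against 291, 241 and 187 FPKM (limma adjusted p = 0.0193, 0.00689 to 0.0868). Its call was lost without WT2 or WT3 (limma adjusted p = 0.0868 and 0.0782) and with no filter on low values (0.0761). The T cell receptor constant gene Trbc1 was at 0.938 to 2.83 FPKM, Trbc2 at 0.614 to 3.07 FPKM and Cd4 at 1.05 to 2.42 FPKM, with overlapping groups. The summed level of the T and NK list was 361 to 422 FPKM in WT1 to WT3 and 195 to 300.5 FPKM in KO1 to KO3, most of it Nkg7, and its part in any result on the members was not tested. Erythroid markers had a summed level of 475 to 744 FPKM in the libraries labelled WT and 966 to 2137 FPKM in those labelled KO, highest in KO2, with 5 of 8 tested genes called higher and 0 lower (background 5.48% higher).

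**Figure D4:**
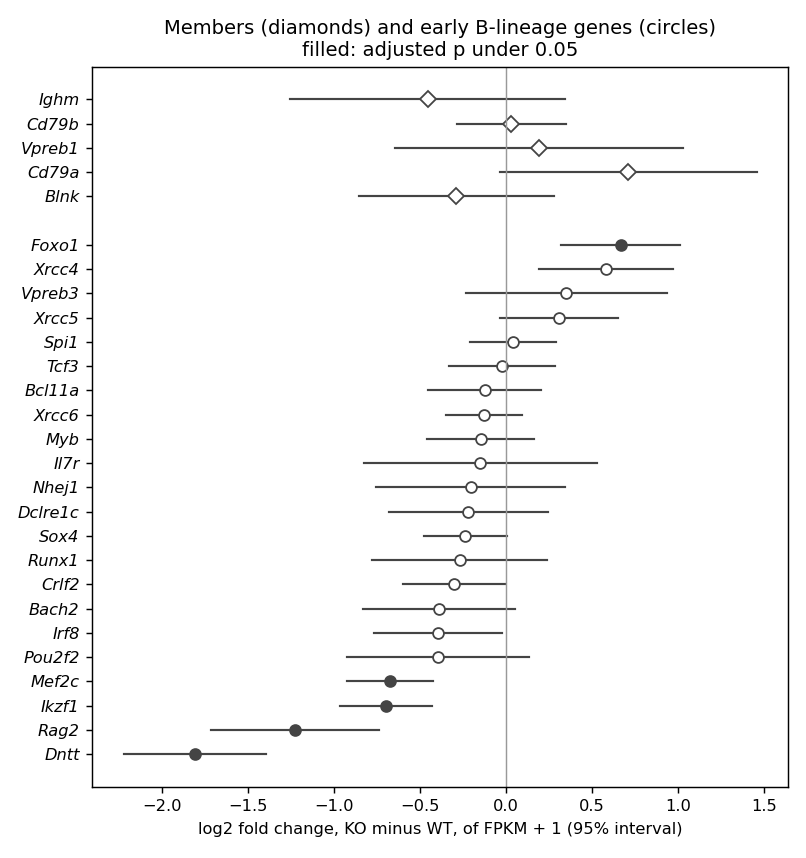
Log2 difference of FPKM + 1, KO minus WT, with its 95% interval, for the 5 tested members (diamonds) and the tested genes of early B cell recombination and B lineage factors (circles). Filled marks have a limma adjusted p under 0.05: Foxo1 at 0.66 and Mef2c, Ikzf1, Rag2 and Dntt from -0.67 to -1.81, while no diamond is filled.

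For each tested member, the 3 genes with the most similar profile over the 6 libraries were found among all genes tested. Likeness was the root mean square difference of log2(FPKM + 1) after each gene was centred on its own mean. Closest to Ighm was Wfdc17 (0.106), at 163, 183 and 169 FPKM in WT1 to WT3 and 166, 63.8 and 183 FPKM in KO1 to KO3. KO2 was thus the low library for Wfdc17 too. The next were 1100001G20Rik (0.204), at 0 in KO2, and Cd7 (0.228), at 0.639 FPKM in KO2 and 2.81 to 4.38 FPKM elsewhere. Closest to Cd79a were D4Wsu53e (0.153), Rasl11a (0.175) and 1500011B03Rik (0.186), all highest in KO1 and KO2. Around Cd79b the differences were smallest, with Ankrd9 (0.0447), Pdcd7 (0.0463) and Rchy1 (0.0576). Vpreb1 was followed by 2310022B05Rik (0.162), Rpusd3 (0.162) and Coa4 (0.182), which shared its high value in KO2. Blnk was followed by Gm5523 (0.0639), Snx29 (0.0812) and Ppp1r8 (0.0912). No member was among the genes closest to another member.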

How the data were processed

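The deposited table holds FPKM, scaled by the authors, for 6 libraries. SMART-Seq v4 cDNA and Nextera XT libraries, named in the labels' protocols, do not mark strand. DESeq2 1.18.1, HTSeq 0.6.1, TopHat2 2.1.1, bcl2fastq 2.19.1.403 and mm10 are listed without roles, per the submitters' processing notes. The annotation used was not given in the sources used here.

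Whole reads were recovered from ratios of FPKM between libraries, which held in each of the 17183 genes seen in at least 2 libraries (relative tolerance 1e-11). The implied gene length equalled that of GENCODE M21 for 9785 genes (50.5% of those above 0). In other genes, among them Ighm, Vpreb1, Pax5 and Ms4a1, and in the 2190 genes above 0 in 1 library, reads are lower bounds. Intervals and floors cover counting error only (95%).

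KO and WT libraries, 3 of each, were compared with limma 3.58.1 in R 4.3.3 (lmFit, eBayes with trend) on log2(FPKM + 1), a scale that understates changes of low genes. Genes needed a mean of 1 FPKM or more. P-values were two-sided, adjusted by Benjamini-Hochberg over all genes tested, and called under 0.05. The fit was tested on simulated data. Other pseudocounts, filters, scalings, variance models, a replicate block and fewer libraries were tried. Voom on recovered reads was added after seeing the data.

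The members and lists were chosen with earlier results of these data known. Named were all members, up to 4 called genes of each other list by smallest p, up to 3 further abundant markers of a cell type, light chain and switched heavy chain constant genes, Drd2 and Drd3, and the 3 genes most like each tested member. Other genes, among them V, D and J segments, low B lineage markers, Syk, Tcf3 and sex-linked genes, were named after their values were seen.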

Additional observations from a re-analysis of the deposited data

How the results depend on the processing

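The number of genes called was 1240. It was 588 with no filter on low values, 514 with KO1 and KO3 left out together, and 370 to 1598 with 1 library left out (lowest without WT2, highest without KO3; 531 without WT1, 509 without WT3, 824 without KO1 and 883 without KO2). The replicate block gave 805, but same-numbered libraries did not deviate together (Pearson's r over genes of -0.0311, 0.045 and -0.116), so the numbers were not taken to pair them, and the block called no member. The number of members called, 0, was 0 to 1 with 1 library left out (Cd79a without KO3) and 1 with KO1 and KO3 left out (Ighm). Directions turned with 1 library left out for Cd79b (-0.10 without WT3 and -0.06 without KO1, range -0.10 to 0.13), Ighm (0.070 without KO2, range -0.76 to 0.070) and Vpreb1 (-0.25 without KO2, range -0.25 to 0.58), and with KO1 and KO3 left out for Cd79b (-0.013) and Igj (-0.014). The causes were not tested. Over the alternatives run for 23 single genes (the tested members, the called B cell, V and J genes named, and Ighd4-1, Igkc, Igj, Syk, Nkg7 and Klrb1c), 64 fits lost the call, 12 gained it and 6 turned, and the rest kept direction and side of the threshold. Depth limits Pax5, Ms4a1 and Igll1, with at most 20 reads in a library.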
